A study of Zea mays with 74 samples.

Results

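The maize gene teosinte branched1 (tb1, Zm00001d033673) and the sequence around it were described through all regions that the deposited tables place between positions 268500000 and 272500000 of chromosome 1 (B73 AGPv4). The members were chosen by position, in a window centred on a DMR already called in these data. That DMR and those overlapping it were thus certain to be counted. They were 20 of the 6389 differentially methylated regions (DMRs) and 15 of the 4060 selective sweeps of the series, in a window of 4 Mb that made up 0.190% of the chromosomes. At its centre stood the tb1-DMR, a CG DMR between teosinte and modern maize from 270512522 to 270513056. The paper places it upstream of tb1, but the window reaches far to both sides and is not all upstream sequence. Places before and after it are given by chromosome position, not by the direction of tb1. The plants were modern maize inbred lines (n = 14, from published data), open-pollinated Mexican landraces (n = 17) and teosinte, Zea mays ssp. parviglumis, the wild ancestor of maize (n = 20). Landrace and teosinte plants were sampled as the third leaf of greenhouse seedlings, and each gave a whole-genome sequencing (WGS) and a whole-genome bisulfite sequencing (WGBS) library. The teosinte plants came from a single locality. Each inbred line is a single genotype, and the reference genome belongs to an inbred line of modern maize.

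The tb1 gene encodes a transcription factor of the TCP family that represses the outgrowth of axillary buds, so that strong activity gives a plant with few tillers. It is a textbook domestication gene: teosinte is highly branched and maize is not, and the difference was mapped to regulatory sequence upstream of tb1 in which maize carries a Hopscotch retrotransposon insertion. Plant cytosines are methylated in CG, in CHG or in CHH (H standing for A, C or T). Methylation in CG is copied after replication by a maintenance methyltransferase, that in CHG is kept by a loop with histone H3 lysine 9 methylation, and that in CHH has to be set anew, largely by small RNAs. In maize, methylation in CG and CHG is dense over transposons, and stretches free of it often mark regulatory sequence. In the RefSeq table at hand, which follows a later assembly (NAM-5.0), tb1 is a synonym of LOC103643875 on chromosome 1. D8, a DELLA repressor of gibberellin signalling (picked out after the table had been seen), is found 4 genes further on. Whether D8 falls in the AGPv4 window was not determined. A sequence of the AGPv4 build was not used here, so no bases are shown.

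A DMR is a stretch that the authors called different in methylation of a cytosine context between a pair of populations. In CG and CHG the mean difference had to pass their threshold, and for CHH the paper states none. The paper counts DMRs in CG and CHG only, whereas the 6389 used here include 1092 CHH DMRs. A sweep is a stretch among the highest of the scan by XP-CLR, a score built on differences in allele frequency between a pair of populations. The authors set the cutoff as a share of the scan, so a listed sweep need not exceed what drift would give. Both tables were made from whole populations, hold 1 entry per region and pair, and carry no value for a single plant. No error between plants can therefore be given for any region, and nothing was tested. The tables hold the position, context and pair of each DMR. Methylation levels were not analysed here, so the text gives no direction for a difference in methylation. Teosinte/Maize, Teosinte/Landrace and Landrace/Maize name the pairs as the tables do. Each pair shares a population with each of the others, so a region found in several pairs was not found independently.

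A group of 3 DMRs was stacked at the centre of the window. The Teosinte/Maize CG DMR there, the tb1-DMR, was 534 bp long, while the median of the 1545 CG DMRs of that pair was 333 bp and 74.6% of them were shorter. A Teosinte/Maize CHG DMR from 270512590 to 270513043 (453 bp) was nested in it and covered 84.8% of its length. A Teosinte/Landrace CHG DMR from 270512714 to 270513043 (329 bp) was nested in turn in the CHG DMR of Teosinte/Maize and covered 61.6% of the tb1-DMR. The 2 CHG DMRs ended at the same base, 13 bp before the end of the tb1-DMR. Their starts lay 68 bp (Teosinte/Maize) and 192 bp (Teosinte/Landrace) after its start. Modern maize and landraces were thus each called different from teosinte in CHG over a shared stretch of 329 bp. In CG the difference was called for modern maize alone. Because a DMR needs a minimum mean difference, the lack of a Teosinte/Landrace CG DMR does not show that landraces had the teosinte level in CG. No Landrace/Maize DMR of any context and no CHH DMR overlapped the tb1-DMR.

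**Figure D1:**
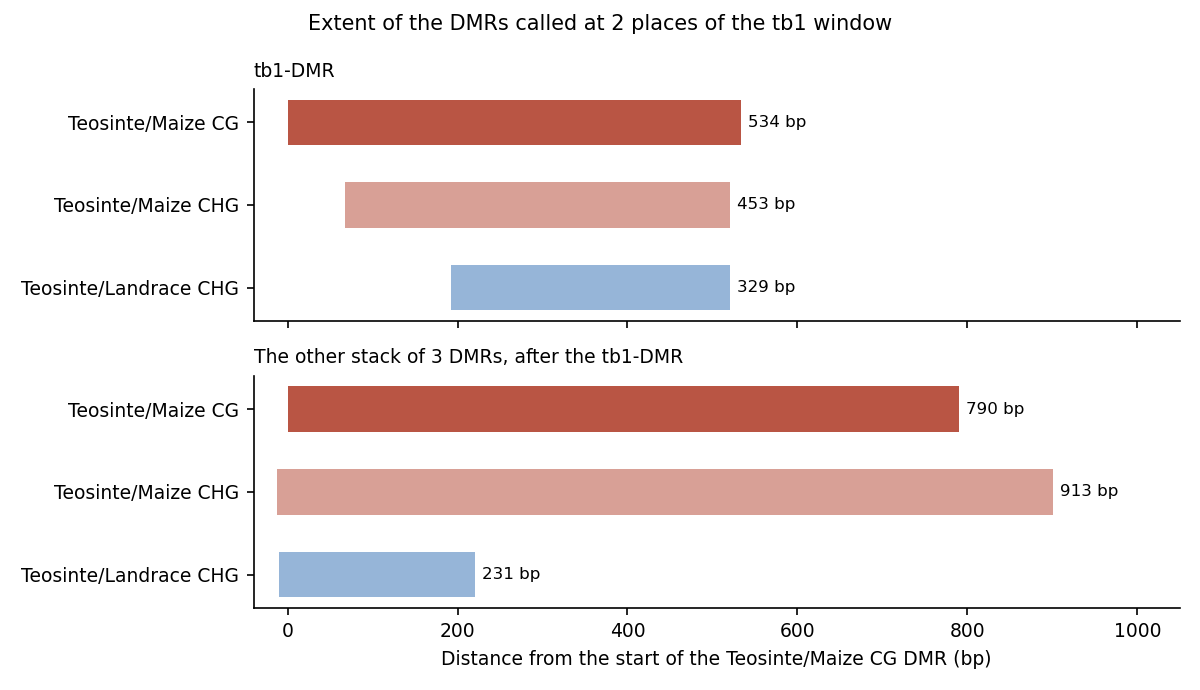
Extent of the DMRs called at 2 places of the tb1 window, in bp from the start of the Teosinte/Maize CG DMR of each place. Each bar is 1 deposited DMR, labelled with its length. At the tb1-DMR (top) the CHG DMRs of 453 and 329 bp are nested in the CG DMR of 534 bp and end at the same base, while at the other place (bottom) the Teosinte/Landrace CHG DMR of 231 bp lies at the start of the Teosinte/Maize DMRs.

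This combination, which was picked out after the tb1-DMR had been seen, was uncommon among CG DMRs of modern maize against teosinte. A Teosinte/Maize CHG DMR overlapped 769 of the 1545 (49.8%), so its presence at the tb1-DMR was common. A Teosinte/Landrace CHG DMR overlapped 193 (12.5%) and a Teosinte/Landrace CG DMR 265 (17.2%). Both CHG DMRs together overlapped 167 (10.8%). Both CHG DMRs without a Teosinte/Landrace CG DMR, as at the tb1-DMR, were found at 49 (3.17%). Another CG DMR of the window, from 272130562 to 272131352, was among these 49, so the combination was not particular to the tb1-DMR. A Landrace/Maize CG DMR overlapped 84 (5.44%), a Landrace/Maize CHG DMR 49 (3.17%) and a Teosinte/Maize CHH DMR 11 (0.712%), so their lack at the tb1-DMR was what most CG DMRs showed.

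The tb1-DMR had no other CG DMR close to it. The nearest CG DMRs of the same pair were 1.20 Mb before it (269309531 to 269309978, 447 bp) and 1.20 Mb after it (271709765 to 271710127, 362 bp). With 0.734 CG DMRs of that pair per Mb of all chromosomes, these gaps were no wider than the mean spacing. The nearest DMR of any kind outside the stack was a Teosinte/Maize CHG DMR that ended 159.9 kb before it. On the other side the nearest was a Teosinte/Maize CHG DMR that began 328.4 kb after it. The next Teosinte/Landrace DMRs were a CG DMR 1.20 Mb before it and a CHG DMR 1.62 Mb after it. The CHG DMR after it was the only later Teosinte/Landrace CHG DMR inside the window.

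The tb1-DMR lay in a sweep in 2 of the 3 pairs of populations. The Teosinte/Maize sweep ran from 270480001 to 270595000 (115 kb) with an XP-CLR of 67.2, and the Landrace/Maize sweep from 270480001 to 270580000 (100 kb) with an XP-CLR of 79.5. Sweep ends move in fixed steps of the scan. Of the 1330 Teosinte/Maize sweeps, 589 overlapped a Landrace/Maize sweep, and 82 (6.17% of the 1330) began at the same base as such a sweep. The tb1-DMR lay 32.5 kb from the shared start at 270480001, nearer to it than to the ends, which were 81.9 kb (Teosinte/Maize) and 66.9 kb (Landrace/Maize) away. No Teosinte/Landrace sweep overlapped it. Such sweeps flanked it instead, 127.5 kb before it (270225001 to 270385000, XP-CLR 83.1) and 186.9 kb after it (270700001 to 270890000, XP-CLR 84.5). Of the 1545 Teosinte/Maize CG DMRs, 76 (4.92%) lay in a sweep of both Teosinte/Maize and Landrace/Maize and in none of Teosinte/Landrace. Together with both CHG DMRs and no Teosinte/Landrace CG DMR, this was found at 5 (0.324%), the tb1-DMR among them. These combinations were put together after the tb1-DMR had been seen, and are descriptions of it.

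The scores of the sweeps that held the tb1-DMR were not high within their pairs. Of the Teosinte/Maize sweeps, 25.6% had a lower score, and the median was 77.2. Of the Landrace/Maize sweeps, 41.0% had a lower score, and the median was 85.3. All deposited sweeps are already the outliers of the scan, so these are ranks among outliers and not among all stretches of the genome. Scores are compared within a pair only.

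**Figure D2:**
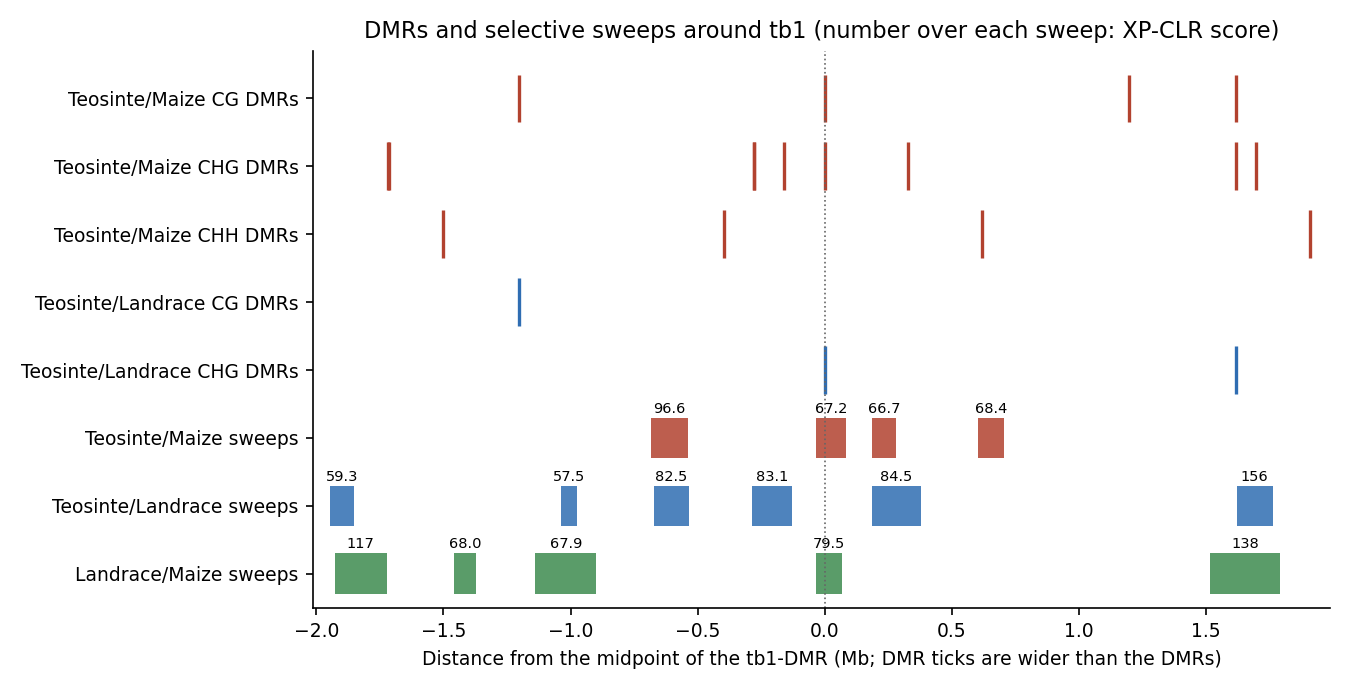
DMRs and selective sweeps of the tb1 window by distance from the midpoint of the tb1-DMR (Mb), with 1 row for each kind of DMR and for each pair of populations with sweeps. Ticks are DMRs (drawn wider than they are), bars are sweeps to scale with their XP-CLR score above them, and the dotted line marks the tb1-DMR, which crosses the sweeps of 67.2 (Teosinte/Maize) and 79.5 (Landrace/Maize) and passes between Teosinte/Landrace sweeps of 83.1 and 84.5.

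Over the window as a whole, most DMRs were those of modern maize against teosinte, as in the whole table. They made up 17 of the 20 DMRs, against 77.8% of all DMRs, with 4 in CG, 9 in CHG and 4 in CHH, and the other 3 were Teosinte/Landrace DMRs (1 in CG, 2 in CHG). The window held 5.0 DMRs per Mb, against 2.69 in the rest of chromosome 1 and 3.03 in all chromosomes. For Teosinte/Maize CHG the density was 2.25 per Mb, against 1.04 in the rest of chromosome 1, and for CHH it was 1.0 against 0.396. The CG density of that pair was 1.0 per Mb, against 0.660. When the chromosomes were cut into 519 consecutive tiles of 4 Mb, the tiles had a median of 10 DMRs (quartiles 6 and 16, highest 62), and 82.9% of them had fewer than 20. For Teosinte/Maize CHG, 88.2% of the tiles had fewer than the 9 of the window, and for CG 67.4% had fewer than 4. The window was thus on the dense side of the tiles in all 3 contexts and within their range. It was centred on a called DMR, whereas the tiles were placed without regard to DMRs. The stack at the tb1-DMR was therefore in its CG and CHG counts by choice. The counts depended on where the window was cut. The tile from 268000001 to 272000000, which holds the tb1-DMR, had 15 DMRs, between the median and the upper quartile. Of Teosinte/Maize it had 3 in CG, 7 in CHG and 3 in CHH.

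**Figure D3:**
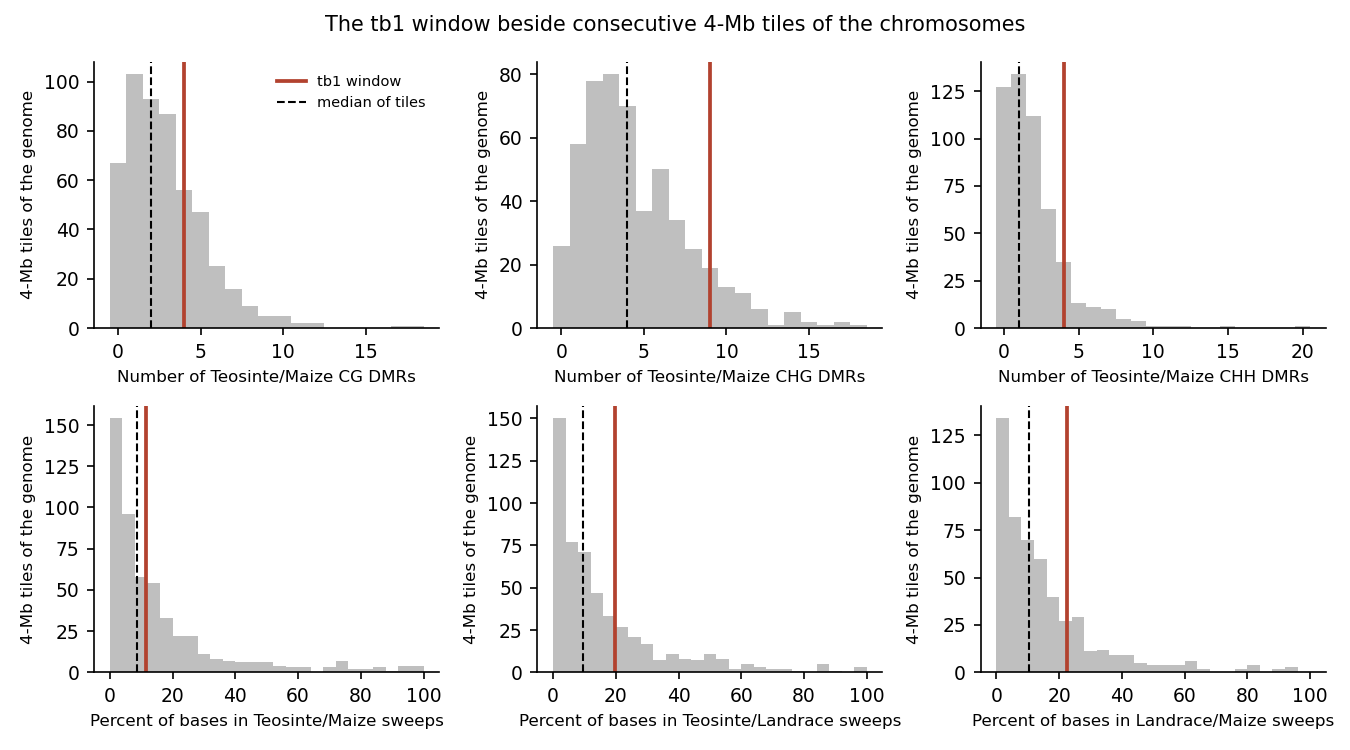
The tb1 window (red line) beside 519 consecutive 4-Mb tiles of the chromosomes (grey bars, number of tiles on the y axis; dashed line, median of the tiles). The upper panels give the number of Teosinte/Maize DMRs in CG, CHG and CHH, where the window has 4, 9 and 4, and the lower panels the percent of bases in sweeps of each pair, where it has 11.5 (Teosinte/Maize), 19.7 (Teosinte/Landrace) and 22.6 (Landrace/Maize).

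The 20 DMRs formed 15 separate places, 12 of them with a single DMR. The 2 places with 3 DMRs were the tb1-DMR and a stack 1.62 Mb after it. There, a Teosinte/Maize CHG DMR from 272130550 to 272131463 (913 bp) held a Teosinte/Maize CG DMR from 272130562 to 272131352 (790 bp, longer than 91.0% of its kind) and a Teosinte/Landrace CHG DMR from 272130552 to 272130783 (231 bp). The kinds of DMR were the same as at the tb1-DMR, again without a Teosinte/Landrace CG DMR. The Teosinte/Landrace CHG DMR covered 25.3% of the Teosinte/Maize CHG DMR in this stack and 72.6% of it at the tb1-DMR. Across the genome, 373 of 4596 such places (8.12%) held 3 or more DMRs. The study's source data place the CG DMR of this stack by the gene Zm00001d033718.

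The remaining place with more than 1 DMR lay 1.20 Mb before the tb1-DMR and held CG DMRs only. A Teosinte/Landrace CG DMR from 269309417 to 269309789 (372 bp) shared 258 bp with the Teosinte/Maize CG DMR there, 57.7% of the 447 bp of the Teosinte/Maize DMR. It was the only CG difference of the window called for both landraces and modern maize against teosinte. A gene list of the study pairs this Teosinte/Maize DMR with Zm00001d033632, and the one 1.20 Mb after the tb1-DMR with Zm00001d033704. What these genes do is not annotated in the sources used here. The Teosinte/Maize CG DMR at Zm00001d033704 was overlapped by no other DMR.

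The other DMRs of the window were CHG and CHH DMRs of Teosinte/Maize that no CG DMR overlapped. The CHG ones came as a pair 1.72 Mb before the tb1-DMR (268795615 to 268795722, 107 bp, and 268796746 to 268797386, 640 bp, 1024 bp apart). A further pair was 0.278 Mb before it (270233512 to 270234024, 512 bp, and 270234481 to 270234860, 379 bp, 457 bp apart). Single CHG DMRs lay 159.9 kb before it (270351561 to 270352583), 328.4 kb after it (270841498 to 270841703, 205 bp) and 1.70 Mb after it (272208329 to 272208920, 591 bp). The one 159.9 kb before it was the longest DMR of the window, with 1022 bp, and 86.5% of Teosinte/Maize CHG DMRs were shorter. The 4 CHH DMRs were short, as CHH DMRs were elsewhere, with 68 to 136 bp and a median of 107 bp, against a median of 109 bp for that pair in all chromosomes. They lay 1.5 Mb and 396.1 kb before the tb1-DMR and 619.2 kb and 1.91 Mb after it, and none overlapped a DMR of another context. Just outside the window, the nearest DMRs were Teosinte/Maize CHG DMRs 1142 kb before its start and 115 kb after its end.

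No Landrace/Maize DMR was in the window. This pair had few DMRs anywhere, 374 in all, and 311 of the 519 tiles had none either. The lack of them reached far beyond the window, from 266865962 to the last position of chromosome 1 in the tables at 307060000. At 40.2 Mb this was rank 3 by length of the 325 stretches without such a DMR, whose median was 3.93 Mb, and it was measured after the lack had been noticed. The same stretch held 85 Teosinte/Maize and 16 Teosinte/Landrace DMRs, and 27 Landrace/Maize sweeps.

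The sweeps of the window numbered 4 for Teosinte/Maize, 6 for Teosinte/Landrace and 5 for Landrace/Maize. The Teosinte/Maize sweeps covered 11.5% of the window, against 13.2% of the rest of chromosome 1 and 15.8% of all chromosomes. Those of Teosinte/Landrace covered 19.7%, against 18% and 15.9%, and those of Landrace/Maize 22.6%, against 17.9% and 15.5%. These backgrounds are pooled. Over the 519 tiles of 4 Mb, median coverage was 8.62% (Teosinte/Maize), 9.62% (Teosinte/Landrace) and 10.2% (Landrace/Maize). The window was above 57.6%, 72.6% and 78.2% of the tiles in these pairs, so it was not poor in Teosinte/Maize sweeps beside the typical tile. For Teosinte/Maize and Landrace/Maize the side of the pooled backgrounds turned with the width of the window. In the central 2 Mb, Teosinte/Maize sweeps covered 23.0% and Landrace/Maize sweeps 10.8%. No base of the window was in a sweep of all 3 pairs, whereas 4.49% of the rest of chromosome 1 was. Such pooled shares take in tiles dense in sweeps. From 132000001 to 136000000, Teosinte/Maize sweeps covered 92.5%, Teosinte/Landrace sweeps 72.0% and Landrace/Maize sweeps 93.4%. Common sweep sequence was not worked out per tile, so whether its lack is usual for a stretch of this size is unknown. Sweep sequence common to Teosinte/Maize and Landrace/Maize was limited to the 100 kb around the tb1-DMR, 2.50% of the window against 6.81% of the rest of chromosome 1. The other Teosinte/Maize sweeps overlapped Teosinte/Landrace sweeps (269830001 to 269975000 and 270700001 to 270795000) or none (271115001 to 271220000).

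In each pair, the sweep of the window with the highest score did not hold the tb1-DMR. A Teosinte/Landrace sweep from 272135001 to 272275000 had an XP-CLR of 156, rank 81 of 1355, and a Landrace/Maize sweep from 272030001 to 272305000 around it had 138, rank 104 of 1375. A Landrace/Maize sweep from 268585001 to 268790000 had 117, rank 223. In Teosinte/Maize the highest was 96.6, rank 336 of 1330, from 269830001 to 269975000, which ended 537.5 kb before the tb1-DMR. The remaining Teosinte/Maize sweeps had 66.7, 67.2 and 68.4, all below the median of that pair. The scores of Teosinte/Landrace were 57.5 to 156, with 4 of 6 above the median of 68.8. Those of Landrace/Maize were 67.9 to 138, with 2 of 5 above the median of 85.3. Just outside the window, Landrace/Maize sweeps with XP-CLR of 106 and 77.3 ended 10 kb before its start and began 80.0 kb after its end.

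**Figure D4:**
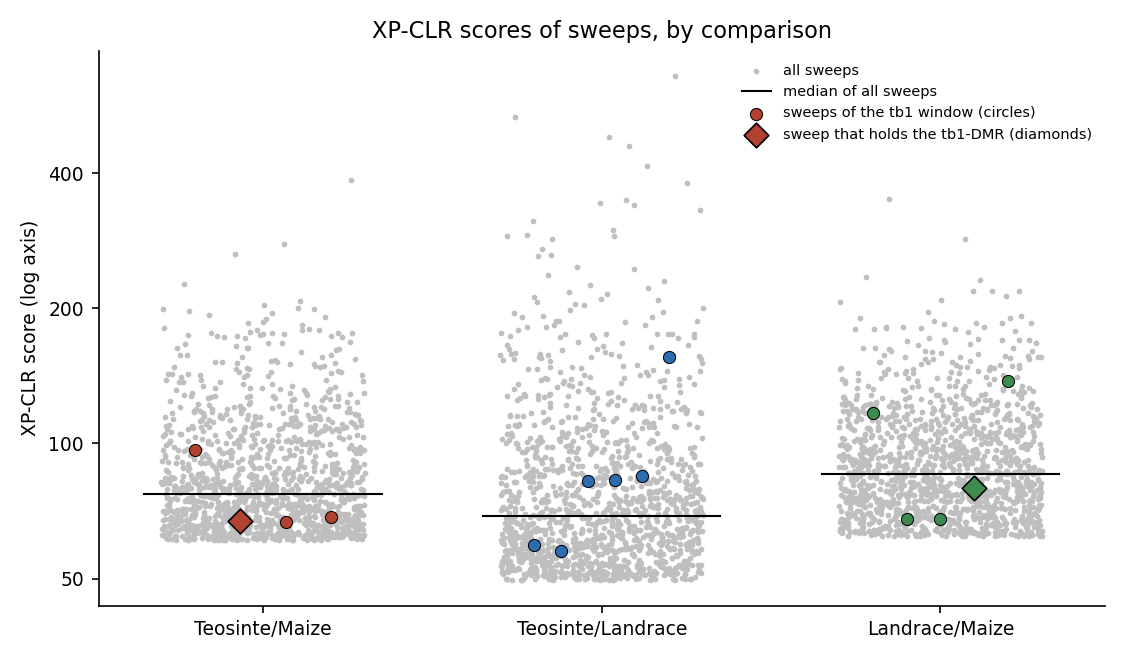
XP-CLR scores (log axis) of all sweeps by pair of populations (grey points, spread sideways at random; black lines, medians), with the sweeps of the tb1 window as circles and those that hold the tb1-DMR as diamonds. The diamonds, at 67.2 in Teosinte/Maize and 79.5 in Landrace/Maize, lie below the medians of 77.2 and 85.3, and the Teosinte/Landrace pair has no diamond.

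Few DMRs of the window lay in a sweep of their own pair. An overlap of at least 1 bp was found for 3 of 20 (15%), against 29.2% of all DMRs. They were all Teosinte/Maize DMRs: the tb1-DMR (27.7% over all CG DMRs of that pair), the CHG DMR nested in it (27.6% over CHG) and a CHH DMR from 271132207 to 271132343 (37.0% over CHH). Of the 17 Teosinte/Maize DMRs 17.6% were thus in their own sweeps, against 29.6% of all Teosinte/Maize DMRs, and of the 3 Teosinte/Landrace DMRs none was, against 28.6% (27.1% over CG and 28.5% over CHG). With so few DMRs, some of them stacked, these shares are rough.

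More of them lay in a sweep of any pair, their own included: 12 of the 20 (60.0%), against 45.1% of all DMRs. Sweeps of any pair also covered 38.6% of the window, against 31.9% of the rest of chromosome 1 and 30.6% of all chromosomes. The 12 take in every DMR of both stacks of 3, which share bases, so this share is rough as well. The single CHG DMRs and the pair nearest to the tb1-DMR were among the 12. The CHG DMRs 0.278 Mb and 159.9 kb before it were in 1 Teosinte/Landrace sweep, from 270225001 to 270385000. The CHG DMR 328.4 kb after it was in the Teosinte/Landrace sweep that ended at 270890000, and was 46.5 kb beyond the end of the Teosinte/Maize sweep that began at the same base. In all, 5 Teosinte/Maize DMRs lay in a Teosinte/Landrace sweep (24.3% over all DMRs of that pair) and 5 in a Landrace/Maize sweep (22.0%). Both Teosinte/Landrace CHG DMRs, at the tb1-DMR and in the stack 1.62 Mb after it, lay in Landrace/Maize sweeps (24.2% over all Teosinte/Landrace DMRs). The stack 1.62 Mb after the tb1-DMR began 101 kb inside the Landrace/Maize sweep of score 138 and ended 3537 bp before the Teosinte/Landrace sweep of score 156. Both stacks of 3 DMRs were thus in a Landrace/Maize sweep and outside the Teosinte/Landrace sweeps next to them. Among the 49 CG DMRs of the genome with the same kinds of DMR, 18 (36.7%) were in a Landrace/Maize sweep, against 22.5% of all Teosinte/Maize CG DMRs, and 20 (40.8%) were in a Teosinte/Landrace sweep, against 24.1%. The arrangement at tb1 was therefore not what most of these 49 showed. Of the 15 sweeps, 7 held a DMR of any pair (46.7%), against 31.4% of all 4060 sweeps. The 7 include the Teosinte/Maize and Landrace/Maize sweeps that held the tb1-DMR, so part of this share was fixed by the choice of window. They also include the overlapping sweeps of score 138 and 156, which shared a DMR. The sweep of 96.6, the highest Teosinte/Maize score of the window, held none, as did most Teosinte/Maize sweeps, of which 34.1% held a DMR.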

How the data were processed

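WGBS and WGS libraries of 17 landrace and 20 teosinte plants (74 libraries) were grouped by their labels. The authors placed each plant's SNPs in B73 AGPv4, aligned its WGBS reads to that sequence (Bowtie2), read cytosine states with Bismark and used metilene for DMRs. For sweeps they mapped WGS reads with BWA-mem, removed duplicates with Picard, called SNPs with GATK 4 (submitters' processing notes) and ran XP-CLR. The authors' deposited score is the XP-CLR of a merged window, with no fixed range. The other deposited values are positions. Sweep starts count from 1, and DMR starts were taken to count from 0. Mapping to corrected genomes lowers the loss of reads at SNPs, and the thresholds keep large differences only in CG and CHG. For CHH the paper states no threshold of difference. The paper speaks of lower sequencing depth in landraces, and the modern maize libraries came from published data. Depth per cytosine and per plant was not analysed here, so how far it limits the calls of each pair is unknown.

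Rows overlapping the window were joined with an overlap of at least 1 bp and compared with all rows, with chromosome ends set at the largest positions (2105427221 bp in all). Entries that share bases were merged into places. No test was run, and shares carry no interval since neighbouring regions are not independent. Overlaps were tested on simulated intervals against bedtools 2.31.1. Python 3.11.15, numpy 2.4.6, pandas 2.3.3 and matplotlib 3.10.9 were used. The rule was to describe tb1 and every row of the window, and to name another gene only where a list of the study pairs it with a row. D8 is the exception. The window, lists and comparisons were chosen with earlier results of these data known. The alternatives were other window sizes, merged DMRs, whole inclusion, sweeps of any pair, high-score sweeps, ranks on chromosome 1 and starts counted from 1. A table of sample names held no measurement and was not used.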

Additional observations from a re-analysis of the deposited data

How the results depend on the processing

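The count of DMRs in a sweep of their own pair, 3, was 12 with sweeps of any pair and 0 with only the sweeps that scored above the median of their pair, since the sweeps around the tb1-DMR and the CHH DMR scored below it. Coverage by Teosinte/Maize sweeps, 11.5% of the window, was 23.0% in a window of 2 Mb and 3.62% with the higher-scoring sweeps. Coverage by Landrace/Maize sweeps, 22.6%, was 10.8% in a window of 2 Mb and 12% with the higher-scoring sweeps, so in the narrow window the order of these pairs turned, and so did the side of the rest of chromosome 1 on which each fell. Density of DMRs (5.0 per Mb) was 4.50 in 2 Mb and 3.75 in 8 Mb. The ranks on chromosome 1 alone, whole inclusion and starts counted from 1 moved no value by over 1.5 times. No paired analysis was possible because the tables hold no value for a single plant. For the same reason no plant could be left out.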
